A study of Gallus gallus with 9 samples.

Results

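Toll-like receptors are membrane proteins that recognise molecules of microbes. The 8 genes described here are 6 chicken Toll-like receptors (TLR3, TLR4, TLR5, TLR7, TLR15 and TLR21), the adaptor MYD88 and the transcription factor IRF5, measured by RNA-Seq in the liver of adult laying hens. They were found by their gene symbols in the deposited count table, where all 8 symbols occurred and matched 9 of the 22082 loci, since TLR5 was given to a locus on each strand. The list was drawn up because TLR7 was higher in sham-manipulated than in non-manipulated hens, so the TLR7 values of that comparison chose the list and are given as a description without a test.

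The hens were Isa Brown layers killed at 55 weeks of age, with 3 hens per group and 1 liver library per hen. In the albumen-deprived group, 3 ml of albumen was taken from the egg after 1 day of incubation and replaced with sterile saline. In the sham-manipulated group the shell was drilled and sealed with paraffin in the same way, with no albumen taken out and no saline put in. Eggs of the non-manipulated group were left untreated. All 3 groups were incubated together and reared in 1 room on the same diets, so the liver was sampled long after the manipulation of the egg. Because albumen was replaced by saline in the albumen-deprived eggs alone, albumen loss and saline injection cannot be told apart.

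In vertebrates, Toll-like receptors at the cell surface bind components of the microbial wall or flagellum, and those in endosomes bind nucleic acids. Ligand binding recruits an adaptor, MYD88 for most of the family and TICAM1 (TRIF) for TLR3, and a kinase cascade then activates NF-kappaB and interferon regulatory factors, which switch on cytokine and interferon genes. The liver receives blood from the gut, and its resident macrophages, the Kupffer cells, carry many of these receptors. Birds have a family of their own composition: TLR21 recognises unmethylated CpG DNA, the role of TLR9 in mammals, and TLR15 is known from birds and reptiles but not from mammals.

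The libraries held 13720872 to 21747636 counts each. Levels are given as CPM, the counts of a locus per 1000000 counts over the tested loci of its library, after scaling for library composition (TMM), and a locus was tested if it exceeded 1 CPM in at least 3 of the 9 libraries, which 12324 loci did. Of the 9 loci, 7 were tested, whereas the + strand locus of TLR5 and TLR15 stayed below that limit. Liver identity was checked with hepatocyte markers: all 8 loci found in the table were tested, with a summed level of 236102 to 280352 CPM in albumen-deprived, 198855 to 298393 CPM in sham-manipulated and 249904 to 290275 CPM in non-manipulated hens. One library stood apart in its macrophage genes: non-manipulated replicate 1 had the lowest level of all 9 hens in 10 of 10 tested macrophage markers, against 13.2% of all tested loci. Results that rest on it are therefore given with and without this hen. Sham-manipulated replicate 1 was highest at 4 of the 7 tested loci and 5 of 10 macrophage markers, against 15.3% of all tested loci. It was lowest at 1 of the 7 loci, and directions below were not tallied without it. In bulk liver, fewer cells of a type and less RNA per cell cannot be told apart.

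In coordinates of the Galgal4 assembly, TLR7 lay on the - strand of chromosome 1 (122856250 to 122862991, 3 exons) and TLR4 on the + strand of chromosome 17 (3566454 to 3571907). TLR21 lay on the + strand of chromosome 11 (342413 to 346612), MYD88 on the + strand of chromosome 2 (4800977 to 4813676, 5 exons) and IRF5 on the + strand of chromosome 1 (621303 to 630763, 10 exons). Counts of some loci are affected by a neighbour. The locus of TLR3 on chromosome 4 (60924125 to 60964935, 19 exons) had been merged with FAM149A, so its reads belong to both genes. The loci of TLR5 on chromosome 3, at 17199197 to 17205367 on the - strand and at 17199197 to 17202630 on the + strand, overlapped by 3434 bases, and the unstranded libraries do not separate them. TLR15 (chromosome 3, 2946551 to 2955070) overlapped GPR75 on the opposite strand by 3020 bases, and IRF5 overlapped TNPO3 by 927 bases. Reads that matched several loci were left out of the counts, so TLR5, TLR15 and IRF5 may be undercounted.

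**Figure D1:**
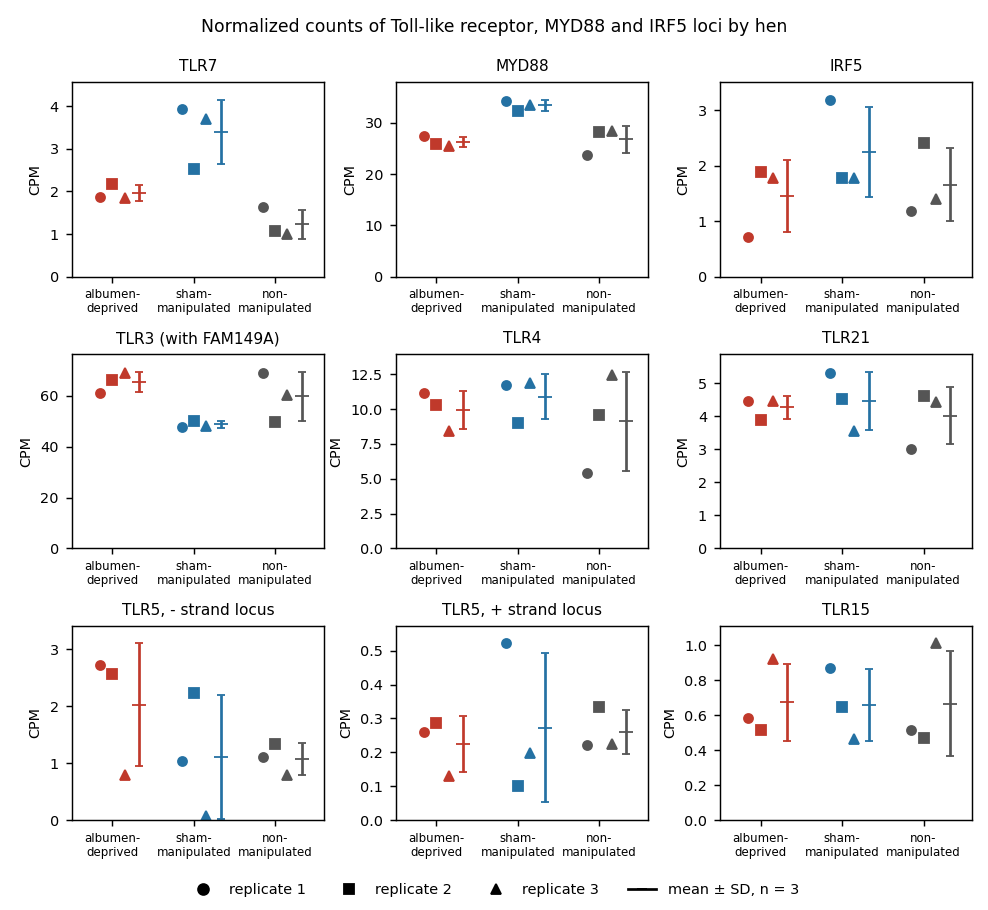
Normalized counts (CPM, y axis, own scale in each panel) of the 9 loci in each hen of the albumen-deprived, sham-manipulated and non-manipulated groups, with marker shapes for the replicate and bars for mean ± SD (n = 3). For TLR7 and MYD88 the sham-manipulated hens lie above all other hens. For the TLR3 locus, which is merged with FAM149A, the albumen-deprived hens lie above the sham-manipulated hens.

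TLR7, an endosomal receptor for single-stranded RNA, was the gene that chose the list. Its level was 1.88, 2.17 and 1.84 CPM in albumen-deprived hens, 3.94, 2.53 and 3.70 CPM in sham-manipulated hens and 1.62, 1.07 and 1.01 CPM in non-manipulated hens. No groups overlapped: every sham-manipulated hen lay above every albumen-deprived hen, and every albumen-deprived hen lay above every non-manipulated hen. These levels rest on few reads, with summed counts of 95 in albumen-deprived hens (95% Poisson interval 76.9 to 116), 175 in sham-manipulated hens (150 to 203) and 56 in non-manipulated hens (42.3 to 72.7), where the intervals cover counting error only. Sham-manipulated over non-manipulated hens gave a log2-fold change of 1.46 (SE 0.29), a 2.75-fold difference. TLR7 was the 1 locus past the cut-off of the study (P-value below 0.001 and absolute log2-fold change above 1) in the upward direction, in which 0.00811% of the tested loci passed. The call was lost in 11 of 17 alternative analyses, and since the gene was chosen on this comparison, nothing is read from it. Without non-manipulated replicate 1, which had the highest TLR7 level of its group, the log2-fold change was 1.70, and 1.33 without sham-manipulated replicate 1.

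Both other comparisons of TLR7 share libraries with the one that chose it, so they are given without a test as well. The log2-fold change of albumen-deprived over sham-manipulated hens was -0.78 (SE 0.27), and that of albumen-deprived over non-manipulated hens was 0.68 (SE 0.29). The albumen-deprived hens thus had an intermediate TLR7 level and the narrowest range, with a mean of 1.96 ± 0.18 CPM, against 3.39 ± 0.752 CPM in sham-manipulated and 1.23 ± 0.339 CPM in non-manipulated hens (SD, n = 3 each).

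TLR3, a receptor for double-stranded RNA, was counted together with FAM149A. Its locus had 61.3, 66.1 and 69.1 CPM in albumen-deprived hens, 47.9, 50.2 and 48.2 CPM in sham-manipulated hens and 69.2, 49.7 and 60.4 CPM in non-manipulated hens. The albumen-deprived hens all lay above the sham-manipulated hens, while the non-manipulated hens spanned nearly the range of both. In albumen-deprived over sham-manipulated hens the log2-fold change was 0.43 (SE 0.13), with a P-value of 0.0102 that did not pass the study cut-off and an adjusted P-value of 0.596 (edgeR quasi-likelihood test, Benjamini-Hochberg adjustment over all tested loci). The P-value stayed below 0.05 in 17 of 17 alternative analyses. Albumen-deprived and non-manipulated hens overlapped (log2-fold change 0.13, P-value 0.342 by edgeR), and the log2-fold change of sham-manipulated over non-manipulated hens was -0.29. Without non-manipulated replicate 1, the highest hen of all at this locus, these log2-fold changes were 0.25 and -0.18. The overlap rested on that hen, as the other non-manipulated hens lay below every albumen-deprived hen. Which of TLR3 and FAM149A carried the difference was not tested.

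TLR4, which senses bacterial lipopolysaccharide, had 11.1, 10.3 and 8.43 CPM in albumen-deprived hens, 11.8, 9.04 and 11.9 CPM in sham-manipulated hens and 5.39, 9.55 and 12.5 CPM in non-manipulated hens. All 3 groups overlapped, and the non-manipulated group held both the lowest and the highest hen. The log2-fold change of albumen-deprived over sham-manipulated hens was -0.13 (SE 0.27, edgeR P-value 0.647). That of albumen-deprived over non-manipulated hens was 0.12 (edgeR P-value 0.677), and it was -0.15 without non-manipulated replicate 1. Sham-manipulated over non-manipulated hens moved likewise, with a log2-fold change of 0.25 over all hens and -0.017 without that replicate. TLR4 thus took its direction against the non-manipulated group from 1 hen.

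TLR21 had 4.46, 3.89 and 4.48 CPM in albumen-deprived hens, 5.33, 4.52 and 3.56 CPM in sham-manipulated hens and 3.03, 4.61 and 4.43 CPM in non-manipulated hens. All groups overlapped, and non-manipulated replicate 1 was again the lowest hen. The log2-fold change was -0.067 (edgeR P-value 0.773) for albumen-deprived over sham-manipulated and 0.084 (edgeR P-value 0.722) for albumen-deprived over non-manipulated hens, and it was 0.15 for sham-manipulated over non-manipulated hens. Without non-manipulated replicate 1, albumen-deprived over non-manipulated hens gave -0.081, and sham-manipulated over non-manipulated hens gave -0.014, so both directions of TLR21 against this group depended on that hen.

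TLR5 binds flagellin, the protein of bacterial flagella. Its - strand locus varied most within a group, with 2.72, 2.57 and 0.790 CPM in albumen-deprived hens, 1.04, 2.23 and 0.0660 CPM in sham-manipulated hens and 1.11, 1.34 and 0.785 CPM in non-manipulated hens. The lowest sham-manipulated hen had 1 count where another hen of its group had 45. Albumen-deprived over sham-manipulated hens gave a log2-fold change of 0.83 (SE 0.77), with a P-value of 0.312 by edgeR, and albumen-deprived over non-manipulated hens gave 0.92 (SE 0.79), with a P-value of 0.272. Single hens moved the comparisons with the sham-manipulated group severalfold. Albumen-deprived over sham-manipulated hens gave 0.30 without sham-manipulated replicate 3 and 1.82 without sham-manipulated replicate 2. Sham-manipulated over non-manipulated hens (0.093 over all hens) ranged from -0.90 to 0.62 when each hen was left out. Albumen-deprived over non-manipulated hens moved less, from 0.66 to 1.29. Differences of this size were not detectable with such spread. The + strand locus had 2 to 9 counts per library, or 0.0993 to 0.522 CPM, and its groups overlapped.

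TLR15 was found in every library with 7 to 18 counts. Its level was 0.582, 0.514 and 0.922 CPM in albumen-deprived hens, 0.869, 0.646 and 0.462 CPM in sham-manipulated hens and 0.517, 0.468 and 1.01 CPM in non-manipulated hens. The 3 groups overlapped with nearly equal means of 0.673 CPM in albumen-deprived, 0.659 CPM in sham-manipulated and 0.665 CPM in non-manipulated hens. A difference between groups was not detectable at this depth, and reads on the overlap with GPR75 may be missing from these counts.

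MYD88, the adaptor that most Toll-like receptors and the interleukin-1 receptor family share, had the highest level per kilobase of the 9 loci. TLR3 was counted together with FAM149A, so MYD88 cannot be ranked against TLR3 alone. It had 27.4, 25.9 and 25.4 CPM in albumen-deprived hens, 34.3, 32.2 and 33.5 CPM in sham-manipulated hens and 23.7, 28.1 and 28.4 CPM in non-manipulated hens. All sham-manipulated hens lay above all other hens, and the other groups overlapped. For albumen-deprived over sham-manipulated hens the log2-fold change was -0.35 (SE 0.11), with a P-value of 0.00938 that did not pass the study cut-off and an adjusted P-value of 0.578 (edgeR, Benjamini-Hochberg). The P-value stayed below 0.05 in 17 of 17 alternatives, including the one without sham-manipulated replicate 1 (log2-fold change -0.33). The log2-fold change was -0.029 (edgeR P-value 0.794) for albumen-deprived over non-manipulated hens and 0.32 (SE 0.11) for sham-manipulated over non-manipulated hens, or 0.24 without non-manipulated replicate 1. The comparisons of MYD88 and TLR7 with the sham-manipulated group use the same 3 sham-manipulated libraries and are not independent of each other.

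IRF5, a transcription factor that acts downstream of MYD88 in mammals, had 0.712, 1.89 and 1.78 CPM in albumen-deprived hens, 3.19, 1.79 and 1.78 CPM in sham-manipulated hens and 1.18, 2.41 and 1.40 CPM in non-manipulated hens. All groups overlapped, with replicate 1 of the sham-manipulated group highest and replicate 1 of the albumen-deprived group lowest. The log2-fold change of albumen-deprived over sham-manipulated hens was -0.62 (SE 0.44, edgeR P-value 0.190), that of albumen-deprived over non-manipulated hens was -0.19 (edgeR P-value 0.688) and that of sham-manipulated over non-manipulated hens was 0.44 (SE 0.44). Without sham-manipulated replicate 1, albumen-deprived over sham-manipulated hens gave -0.28 and sham-manipulated over non-manipulated hens gave 0.095. Albumen-deprived over sham-manipulated hens gave -0.30 without albumen-deprived replicate 1, so these IRF5 differences rested largely on those hens.

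**Figure D2:**
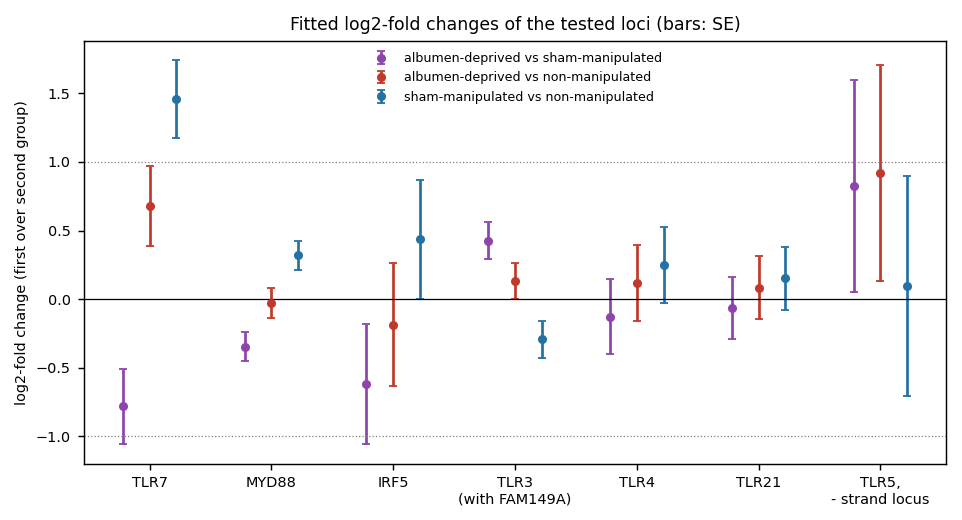
Log2-fold changes (y axis, first over second group, bars ± SE, n = 3 hens per group) of the 7 tested loci in each of the 3 comparisons, with dotted lines at the study cut-off of 1 in either direction. TLR7 alone lies beyond a dotted line, at 1.46 in sham-manipulated over non-manipulated hens, which is the comparison that chose it, and the SE of the TLR5 locus spans the widest range.

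Across the 7 tested loci, none passed the study cut-off between albumen-deprived and sham-manipulated hens, where 0.105% of all tested loci did. The thresholds are those of the study, but the normalization and test differ, and fewer loci passed here than the paper reported for this comparison. Leaving TLR7 aside, the median log2-fold change of the other 6 loci was -0.098, with 2 positive and 4 negative values. Over all tested loci the median was -0.013, with a positive share of 47.8%. Groups did not overlap at 2 of these 6 loci, against 12.8% of all tested loci, 6.75% higher and 6.0% lower. They were the locus of TLR3 merged with FAM149A, higher in albumen-deprived hens, and MYD88, lower in them. The same 2 loci had an unadjusted P-value below 0.05, which 7.13% of all tested loci had, 4.11% higher and 3.02% lower.

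Between albumen-deprived and non-manipulated hens, none of the 7 loci passed the study cut-off either, against 0.0487% of all tested loci. Leaving TLR7 aside, the median log2-fold change of the other 6 loci was 0.10, with 4 positive and 2 negative values. Over all tested loci the median was 0.0071, with a positive share of 51.5%. Without non-manipulated replicate 1 the median of the 6 loci was -0.094, with 2 positive and 4 negative values. Groups overlapped at each of these 6 loci, whereas they did not overlap at 8.39% of all tested loci, 4.55% with the albumen-deprived hens higher. At the merged TLR3 locus the overlap rested on non-manipulated replicate 1. None of these 6 loci had a P-value below 0.05, which 3.23% of all tested loci had. In sham-manipulated over non-manipulated hens, again leaving TLR7 aside, 5 of 6 loci had a positive log2-fold change with a median of 0.20. Without non-manipulated replicate 1 this was 3 of 6 with a median of 0.051. Over all tested loci and hens the positive share was 52.0% and the median 0.012. Groups did not overlap at TLR7 and MYD88, both higher. The shares over all tested loci were 0.0649% for the study cut-off and 9.71% for groups that did not overlap, 4.78% with the sham-manipulated hens higher, and nothing is read from them because this comparison chose the list.

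Compared per kilobase of locus length, the family spanned a wide range of levels. MYD88 had the highest mean over the 9 hens at 6.51 CPM per kilobase, and it lay above the next locus in 9 of 9 hens without any overlap of their ranges. The merged locus of TLR3 (3.26) and TLR4 (2.83) followed, and as their ranges overlapped and the TLR3 locus was above TLR4 in 6 of 9 hens, they do not differ beyond their spread. The TLR3 value is for a locus of 17777 bases that includes FAM149A. The level of TLR3 alone, and its place relative to MYD88 and the others, cannot be told from it. TLR21 reached 1.12 CPM per kilobase, IRF5 0.764, TLR7 0.610 and the - strand locus of TLR5 0.413. TLR15 (0.0872) and the + strand locus of TLR5 (0.0736) were the lowest. TLR15, IRF5 and both TLR5 loci overlap other loci, and reads that matched several loci were not counted. Their levels per kilobase and places in the order may therefore be too low. The full order also holds the TLR2 and TLR6 loci described below, most of which lay between TLR4 and TLR21. In it, neighbours after MYD88 overlapped in their ranges. Still, TLR4 was above the next locus, the longer TLR6 locus, in 9 of 9 hens, and TLR21 was above IRF5 in 9 of 9 hens. TLR4 (1.52 to 3.52) and TLR21 (0.796 to 1.40), which were not neighbours in the full order, did not overlap.

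**Figure D3:**
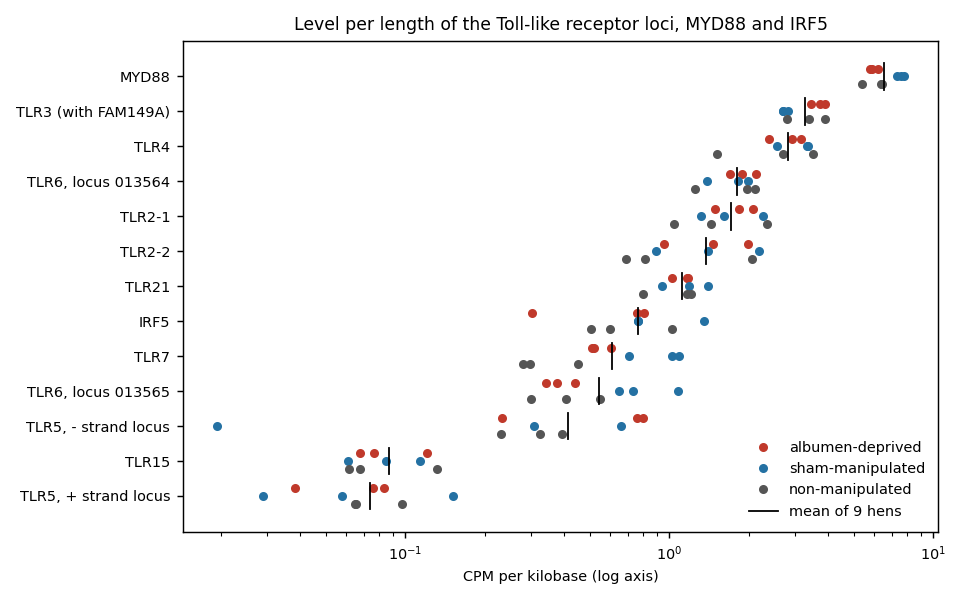
Level per length of the Toll-like receptor loci, MYD88 and IRF5 (x axis, CPM per kilobase of locus length, log axis), with 1 point per hen coloured by group and a black line at the mean of the 9 hens. MYD88 stands above all receptor loci, and TLR15 and the + strand locus of TLR5 lie at the bottom, below 0.2 CPM per kilobase in every hen. The TLR3 locus is merged with FAM149A, so the level of TLR3 alone is not shown. Reads that matched several loci were not counted, so levels of overlapping loci may be too low.

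The other Toll-like receptors in the table were TLR2-1 and TLR2-2, which sense bacterial lipoproteins, and 2 loci named TLR6, a partner of TLR2 in mammals. TLR2-1 ranged from 8.09 to 11.3 CPM in albumen-deprived, 7.19 to 12.3 CPM in sham-manipulated and 5.68 to 12.8 CPM in non-manipulated hens, and TLR2-2 likewise overlapped between all groups. The TLR6 locus at 69116223 on chromosome 4 (5.32 to 9.02 CPM over all hens) also overlapped between groups. The shorter TLR6 locus on chromosome 4 (69131053 to 69133509, 1 exon) had the same order of groups as MYD88. It measured 0.841, 1.09 and 0.922 CPM in albumen-deprived hens, 2.67, 1.79 and 1.58 CPM in sham-manipulated hens and 0.738, 1.00 and 1.35 CPM in non-manipulated hens. Every sham-manipulated hen lay above every other hen. Over all tested loci, groups did not overlap at 12.8% between albumen-deprived and sham-manipulated hens and at 9.71% between sham-manipulated and non-manipulated hens. Albumen-deprived over sham-manipulated hens gave a log2-fold change of -1.08 (SE 0.33) at this locus, with a P-value of 0.00968 and an adjusted P-value of 0.588 (edgeR, Benjamini-Hochberg). Sham-manipulated over non-manipulated hens gave 0.95 (SE 0.33), with a P-value of 0.0175 and an adjusted P-value of 0.906 by the same test. Neither passed the study cut-off. Short reads of TLR2-1 and TLR2-2, or of the TLR6 loci, may fit near-identical copies alike. The authors removed reads of low mapping quality before counting, so both loci of each pair may be undercounted.

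The rest of the pathway was described with lists of receptor cofactors, other adaptors, signalling proteins, negative regulators, other interferon regulatory factors, target genes and other nucleic acid or peptidoglycan sensors, which with the other Toll-like receptors held 91 loci, of which 79 were tested. None of the 79 passed the study cut-off in any comparison. Between albumen-deprived and sham-manipulated hens, 23 log2-fold changes were positive and 56 negative with a median of -0.078, against a positive share of 47.8% and a median of -0.013 over all tested loci. Groups did not overlap at 3 of the 79 loci with the albumen-deprived hens higher and at 6 with them lower, against 6.75% and 6.0% of all tested loci. In this comparison 5 of the 79 loci had an unadjusted P-value below 0.05, against 7.13% of all tested loci. DUSP1, a phosphatase that switches off MAP kinases, was higher in albumen-deprived hens (log2-fold change 0.49, P-value 0.0279 and adjusted P-value 0.681 by edgeR), but its log2-fold change was 0.23 without albumen-deprived replicate 2, with a P-value of 0.128. TMEM173 (STING), which relays signals of cytosolic DNA sensing, was lower (log2-fold change -0.62, P-value 0.0420), with a P-value of up to 0.149 when each hen was left out. The shorter TLR6 locus was lower as well, with a P-value below 0.05 in 17 of 17 alternatives. The remaining 2, named after their values were seen, were NOS2, the inducible nitric oxide synthase (0.57, P-value 0.0476), and CHUK, an I-kappaB kinase subunit (-0.26, P-value 0.0428). Without albumen-deprived replicate 2, the log2-fold change of NOS2 was 0.27, with a P-value of 0.255, and the P-value of CHUK was 0.141.

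In albumen-deprived over non-manipulated hens, 42 of the 79 loci were positive and 37 negative with a median of 0.015, or 36 and 43 with a median of -0.015 without non-manipulated replicate 1, and edgeR gave 0 loci with an unadjusted P-value below 0.05, while the alternatives that kept all hens, DESeq2 and limma among them, gave 0 to 2. In sham-manipulated over non-manipulated hens, 54 were positive and 25 negative with a median of 0.092, against a positive share of 52.0% and a median of 0.012 over all tested loci. Without non-manipulated replicate 1, 44 were positive and 35 negative with a median of 0.037. Over all hens, groups did not overlap at 5 of the 79 loci with the sham-manipulated hens higher and at 1 with them lower. The shares over all tested loci were 4.78% higher and 9.71% in either direction. NOD1, a sensor of peptidoglycan fragments, had 13, 12 and 10.2 CPM in sham-manipulated hens, against 6.20, 8.89 and 8.98 CPM in non-manipulated hens (log2-fold change 0.55, P-value 0.0340 by edgeR). With the shorter TLR6 locus and PELI1, a ubiquitin ligase named after its values were seen (0.37, P-value 0.0452), it made up the 3 loci with an unadjusted P-value below 0.05, against 5.28% of all tested loci. Leaving out 1 hen took each of the 3 above 0.05: NOD1 had a P-value of 0.116 without non-manipulated replicate 1, PELI1 0.225 without sham-manipulated replicate 3 and the shorter TLR6 locus 0.0776 without sham-manipulated replicate 1. The adaptor of TLR3, TICAM1, had 11.8 to 16.7 CPM in albumen-deprived, 15.0 to 20.2 CPM in sham-manipulated and 12.7 to 16.4 CPM in non-manipulated hens. It is also named after its values were seen.

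Of 16 target loci, 5 were tested. The 3 IFNA loci and the IFNB locus had 0 counts in all 9 libraries (95% Poisson interval up to 3.69 counts summed per group). That interval covers counting error only, and reads that fit several IFNA loci may have been removed for low mapping quality. The IFNA and IFNB loci code for type I interferons that TLR7 and TLR3 signalling can induce. IL6, IL10 and IL12A, cytokines named for the same reason, had 0 to 2 counts in each library. Too few reads fell on these loci to compare the groups.

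**Figure D4:**
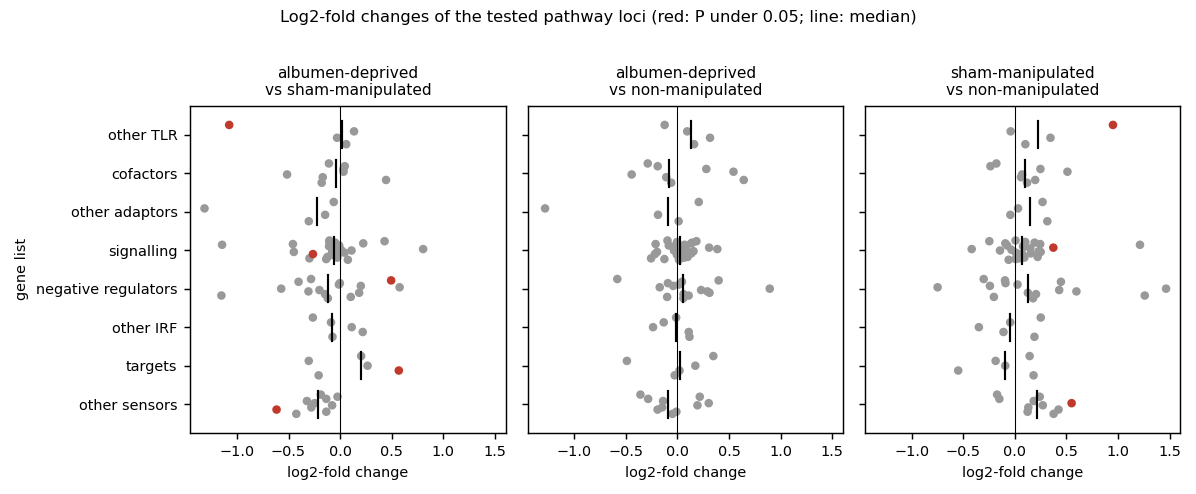
Log2-fold changes (x axis, first over second group) of the 79 tested pathway loci by gene list (y axis) in the 3 comparisons, with red points for an edgeR P-value below 0.05 and a black line at the median of each list. Red points number 5 in albumen-deprived vs sham-manipulated, 0 in albumen-deprived vs non-manipulated and 3 in sham-manipulated vs non-manipulated hens.

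Levels of the Toll-like receptors were set beside markers of immune and blood cell types. The summed level of 10 macrophage markers was 1553 to 1724 CPM in albumen-deprived hens, 1685 to 2079 CPM in sham-manipulated hens and 756 to 1924 CPM in non-manipulated hens, where the low value was replicate 1. That hen was also lowest of all 9 in TLR4, TLR21, MYD88, TLR2-1 and both TLR6 loci, but had the highest TLR7 level of its group and the highest level of all hens at the merged TLR3 locus. Its TLR7 level rests on 22 counts, against 16 and 18 in replicates 2 and 3, too few to rank these hens. The part of macrophage content in the levels of TLR4, TLR7 and the other loci was not tested.

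**Figure D5:**
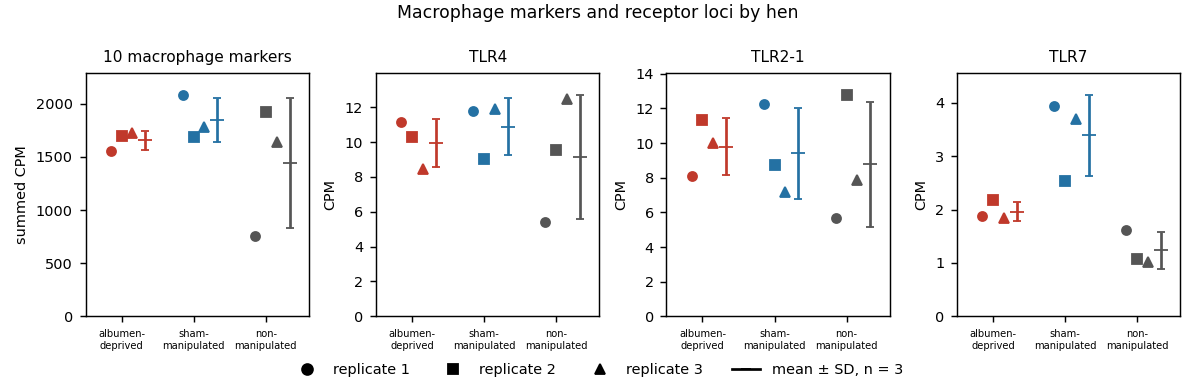
Summed CPM of 10 macrophage markers (left, y axis) and CPM of TLR4, TLR2-1 and TLR7 (own y axes) in each hen of the albumen-deprived, sham-manipulated and non-manipulated groups, with marker shapes for the replicate and bars for mean ± SD (n = 3). Replicate 1 of the non-manipulated group (circle) is lowest for the markers (756 CPM), TLR4 (5.39 CPM) and TLR2-1 (5.68 CPM), but the highest of its group for TLR7 (1.62 CPM). The TLR7 levels of this group rest on 22, 16 and 18 counts.

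Markers of heterophils, the avian counterpart of neutrophils, moved in part with the sham-manipulated group. The summed level of the 14 loci, of which 9 were tested, was 22.1, 19.7 and 35 CPM in albumen-deprived hens, 71.3, 52.3 and 21.8 CPM in sham-manipulated hens and 32.7, 31.9 and 18.8 CPM in non-manipulated hens. Of these sums, 1 LYG2 locus held 33.3 CPM in sham-manipulated replicate 1 and 23.5 CPM in albumen-deprived replicate 3. Replicates 1 and 2 of the sham-manipulated group lay above all other hens and replicate 3 did not. TLR7 levels in sham-manipulated replicates 1, 2 and 3 (3.94, 2.53 and 3.70 CPM) rest on 68, 51 and 56 counts. Between albumen-deprived and sham-manipulated hens, 4 of the 9 heterophil loci (GAL1, GAL2, GAL7 and CATHL2) had an unadjusted P-value below 0.05 and all 4 were lower in albumen-deprived hens, against 7.13% of all tested loci and 3.02% in that direction. The paper had already listed GAL2 and GAL7 for this comparison of the same libraries at its cut-off, which none of the 9 loci passed here. The marker lists were chosen with earlier results known, so this count is a description only. The smallest adjusted P-value of the 9 loci was 0.561 (edgeR, Benjamini-Hochberg). Their part in the TLR7 and MYD88 differences was not tested. B cell markers (4 of 11 loci tested, with PAX5 and TNFRSF13C at 0 to 3 counts) overlapped between groups, at 50.1 to 57.0 CPM in albumen-deprived, 51.4 to 87.4 CPM in sham-manipulated and 40.2 to 72.1 CPM in non-manipulated hens. T and NK cell markers (11 of 12 loci tested) had 60.6 to 84.6 CPM in albumen-deprived, 54.3 to 83.9 CPM in sham-manipulated and 47.0 to 93.1 CPM in non-manipulated hens. Thrombocyte markers (3 of 5 loci tested) summed to 6.21, 5.20 and 5.60 CPM in albumen-deprived hens. The sums were 8.06, 5.26 and 7.26 CPM in sham-manipulated and 6.13, 6.48 and 6.00 CPM in non-manipulated hens, so groups overlapped. The part of these cell types in the TLR7 levels was not tested.

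The genes whose pattern over the 9 hens was most like that of TLR7 were ranked by Pearson's r of log2 CPM among 9526 tested loci with a symbol. The highest values belonged to UBE2Z, a ubiquitin-conjugating enzyme (r = 0.946), TRA@, the T cell receptor alpha locus (0.937), PAXIP1 (0.928), DNASE1L3, a secreted nuclease (0.901), and C19orf21 (0.901). They are the top of a ranking over few hens that fall into 3 groups, so they are a description only. UBE2Z had 17.5, 16.6 and 16.5 CPM in albumen-deprived hens, 20.2, 19.4 and 20.2 CPM in sham-manipulated hens and 15.2, 15.0 and 14.6 CPM in non-manipulated hens, with the same order of groups as TLR7 and no overlap. DNASE1L3 had 6.60, 11.5 and 9.68 CPM in albumen-deprived, 16.9, 14.2 and 12.9 CPM in sham-manipulated and 8.71, 6.55 and 6.06 CPM in non-manipulated hens. MYD88 ranked 329th by this measure (r = 0.633).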

How the data were processed

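Liver RNA-Seq of 9 hens was analysed, 3 biological replicates per group according to the design text. Per the labels, the libraries were single-end and unstranded. The authors aligned reads to galGal4 with TopHat2 2.0.8b, assembled transcripts with Cufflinks 2.1.1 and merged them with known genes. Reads over each locus were then counted with HTSeq 0.5.4p3, and reads shared by several loci were left out. The deposited counts are whole numbers and not normalized. The deposited FPKM table holds the 13599 loci the authors kept. The deposited GC content is in percent. A table of the authors' own comparisons (log2-fold changes, P-values and calls) was not used. No other per-sample columns were found.

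Counts were fitted with edgeR 4.0.16 (R 4.3.3), with TMM factors, 1 coefficient per group over all 9 libraries, quasi-likelihood F-tests and Benjamini-Hochberg adjustment over 12324 loci above 1 CPM in at least 3 libraries. The study corrected for GC content and used full quantile normalization, which was not repeated. The named cut-off is a P-value below 0.001 with an absolute log2-fold change above 1. CPM per kilobase is CPM divided by locus length. Tests were checked on simulated counts. Alternatives were DESeq2 1.42.0 size factors and Wald test, no filter, the edgeR likelihood ratio test, limma 3.58.1 on log2(FPKM + 0.1), a replicate block, a term for the library codes (replicate 3 of each group carries the last codes), 2 groups alone and leaving out each hen.

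The members and gene lists were chosen with earlier results of these data known. Named genes were the 8 members, every other Toll-like receptor found, pathway genes past the cut-off and, per comparison, up to 3 pathway genes with the smallest P-values below 0.05 and no overlap of groups, and the 5 loci most like TLR7. Intervals of counts are exact Poisson intervals. Within groups no libraries agreed within sampling noise (chi-square per degree of freedom 31.1 to 108).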

Additional observations from a re-analysis of the deposited data

How the results depend on the processing

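TLR7 was chosen on the comparison of sham-manipulated with non-manipulated hens, so no count of members past the cut-off is given for it. As a description, the log2-fold change of TLR7 in that comparison stayed positive. It was 1.33 to 1.70 when each hen was left out and 0.95 with FPKM. The counts of members and of pathway loci past the cut-off stayed at 0 in the other comparisons under all 17 alternatives run. Replicate numbers did not pair the hens: over 9 pairs with the same number, deviations from group means correlated at -0.156 to 0.240.

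TLR21 in albumen-deprived over sham-manipulated hens was -0.067, turned to 0.030 with FPKM, and ranged from -0.21 to 0.077 when each hen was left out. In albumen-deprived over non-manipulated hens, leaving out hens gave ranges that crossed 0 for TLR4 (-0.15 to 0.41), TLR21 (-0.081 to 0.18), MYD88 (-0.11 to 0.017) and IRF5 (-0.42 to 0.17). In sham-manipulated over non-manipulated hens, TLR4 and TLR21 turned to -0.017 and -0.014 without non-manipulated replicate 1. The cause was not tested. Counts of pathway loci with a P-value below 0.05 when each hen was left out ranged from 1 to 9 in albumen-deprived vs sham-manipulated (5 over all hens), from 0 to 3 in albumen-deprived vs non-manipulated (0) and from 2 to 10 in sham-manipulated vs non-manipulated hens (3). Few reads limited TLR15, the + strand locus of TLR5 and the cytokine and interferon loci.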
